A study of Mus musculus with 18 samples.

Results

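The cholesterol synthesis enzymes described here are 8 genes, Hmgcs1, Mvd, Idi1, Fdps, Fdft1, Sqle, Lss and Cyp51, out of 34620 genes listed, and were chosen by symbol as enzymes of the pathway that builds sterols from acetyl-CoA. Their RNA was measured by RNA-Seq in ventral dentate granule cells of male Swiss Webster mice, with 2 libraries each from WT, F1 and F2 animals of 8 to 12 weeks. F1 males were themselves wild type for the serotonin 1A receptor gene, but their mother and grandmother are labelled 5HT1A-/+. F2 males had a WT mother, which was an F1 female mated to a WT male, and a 5HT1A-/+ grandmother. WT males had a WT mother and grandmother and came from a lineage bred apart. No animal compared here carried the mutant allele by its own genotype as described in the methods. Cells were cut from the granule cell layer of cryosections, so each library is a bulk sample in which fewer cells of a type and less RNA per cell cannot be told apart. The number of animals behind a library is not given, and p-values measure the spread between these libraries.

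Cholesterol is made through the mevalonate pathway. Acetyl units are joined and reduced to mevalonate, mevalonate is turned into isoprene units, and these are condensed to farnesyl diphosphate, then to squalene, which is closed into lanosterol and trimmed to cholesterol. When sterols in the endoplasmic reticulum run low, SCAP comes loose from its anchor INSIG and escorts the transcription factor SREBP-2 to its activation. SREBP-2 then raises transcription of most genes of the pathway together. Brain cholesterol is made within the brain, since lipoproteins in blood hardly cross the blood-brain barrier, and oligodendrocytes and astrocytes are known as strong producers.

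Reads counted on genes ranged from 26358165 in F2 replicate 1 to 33727936 in WT replicate 1, and 17421 genes had enough reads to be tested. Reads outside annotated exons made up 12.6% and 14.2% of the reads listed in WT, 9.84% and 9.18% in F1, and 10.2% and 11.6% in F2. This share was higher in both WT libraries than in any other, and its part in the results was not tested. The 8 granule cell markers, which include Prox1 and Calb1, were detected in every library, and 0 of them passed edgeR's exact test in F1 or F2, with 2 and 5 at an unadjusted p under 0.05.

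Of the 8 genes, 7 were tested, and 4 of these 7 rose in F1 against WT at q under 0.01 (exact test of edgeR, where q is the p adjusted by Benjamini-Hochberg): Idi1, Fdft1, Sqle and Cyp51. Over all genes tested, 12.3% passed in F1, with 3.77% higher and 8.54% lower. In F2 against WT, 1 of the 7, Idi1, rose, where 12% of all genes passed and 3.86% were higher and 8.1% lower. Idi1 was thus the 1 gene of the 7 past the threshold in both comparisons, which share the WT libraries. The median log2 fold change of the 7 was 0.46 in F1 and 0.16 in F2, beside 0.01 and -0.00 over all genes tested. Without F2 replicate 1 the F2 median was 0.24. The F1 count fell from 4 to 1 without WT replicate 1 (Idi1 left), without WT replicate 2 (Sqle left) or without F1 replicate 2 (Sqle left), and the F2 count fell to 0 without any single WT or F2 library. With edgeR's quasi-likelihood test, 2 of the 7 passed in F1, where 5.91% of all genes did, and 0 in F2, where 5.72% did and 2 of the 7 had an unadjusted p under 0.05. At a q under 0.05 by the exact test, 5 of the 7 passed in F1 and 2 in F2, beside 20.8% and 20.7% of all genes.

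Promoters of 4 members are shown because the pathway is known for shared control through SREBP-2 and its partner NF-Y. The RefSeq promoter table (GRCm38.p6) held 5 of the 8 members, Hmgcs1, Mvd, Idi1, Lss and Cyp51, and not Fdps, Fdft1 and Sqle. Each line gives bases before the transcription start, 5′ to 3′ on the gene's strand, without bases that fell in annotated exons, and capitals mark CCAAT, the NF-Y box, or its reverse complement ATTGG, and in Hmgcs1 also the match to TCACNCCAC, a form of the sterol regulatory element. Hmgcs1 lies at chr13:119690101-119690350 on the plus strand, Mvd at chr8:122443423-122443672 on the minus strand, Idi1 at chr13:8885356-8885605 on the plus strand and Lss at chr10:76531355-76531587 on the plus strand.
Hmgcs1: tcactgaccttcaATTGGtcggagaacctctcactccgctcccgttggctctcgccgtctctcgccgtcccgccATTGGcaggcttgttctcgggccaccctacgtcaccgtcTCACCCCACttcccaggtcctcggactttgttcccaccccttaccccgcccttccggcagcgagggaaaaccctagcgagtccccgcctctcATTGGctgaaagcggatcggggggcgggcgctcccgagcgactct
Mvd: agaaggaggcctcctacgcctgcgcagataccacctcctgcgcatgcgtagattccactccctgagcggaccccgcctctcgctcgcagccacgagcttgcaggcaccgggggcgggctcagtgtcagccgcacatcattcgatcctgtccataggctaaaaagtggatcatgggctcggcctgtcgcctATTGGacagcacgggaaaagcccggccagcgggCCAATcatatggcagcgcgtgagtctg
Idi1: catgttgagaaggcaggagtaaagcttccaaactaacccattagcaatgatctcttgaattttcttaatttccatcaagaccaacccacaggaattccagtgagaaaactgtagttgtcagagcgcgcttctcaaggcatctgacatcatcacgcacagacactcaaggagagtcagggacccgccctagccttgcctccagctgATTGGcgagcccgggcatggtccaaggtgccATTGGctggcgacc
Lss: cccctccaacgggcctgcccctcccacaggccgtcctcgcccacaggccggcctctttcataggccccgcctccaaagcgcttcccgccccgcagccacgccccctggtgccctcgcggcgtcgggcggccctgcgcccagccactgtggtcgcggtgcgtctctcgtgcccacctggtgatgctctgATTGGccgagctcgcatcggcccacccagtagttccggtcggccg
Searched on both strands of the 250 bases before the start, CCAAT was found in all 5 members' windows and in 33.8% of all 32536 promoters. The Sp1 box GGGCGG was likewise found in all 5 and in 33% of all promoters. The element TCACNCCAC was found in 1 of the 5, Hmgcs1, beginning 137 bases before the start, and in 1.05% of all promoters. In Mvd and Idi1 the windows held 2 NF-Y boxes each, at 60 and 27 bases before the start in Mvd and at 45 and 14 in Idi1, and in Lss there was 1 at 62. These boxes therefore stood in genes that rose in F1 (Idi1 and Cyp51) and in genes that did not pass the test (Mvd and Lss). Since all 5 windows held a box, its presence does not separate these genes. The box of Cyp51, at 29 bases before the start, overlapped an annotated exon and is not printed. A match is a run of letters and does not show binding.

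Hmgcs1 encodes the cytosolic HMG-CoA synthase, which joins acetyl units into HMG-CoA. It was listed with 0 reads in all 6 libraries and was not tested. Its 300-base promoter window matched 2 unplaced scaffolds of the mm9 assembly (NCBIM37) in full and no chromosome, and the GENCODE M1 annotation of mm9 has 0 genes of that name. Reads that align to more than 1 place were not counted, and whether this gave the zeros was not tested. The zeros were therefore not read as a level of Hmgcs1.

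Mvd encodes mevalonate diphosphate decarboxylase, which makes isopentenyl diphosphate (mm9, chr8:124957496-124967322). Its level was 17.9 and 13.7 CPM in WT, 18.7 and 19.8 in F1, and 15.6 and 14.3 in F2, where CPM is the gene's reads scaled to the TMM-adjusted size of the library. Both F1 libraries lay above both WT libraries, but the WT libraries were themselves far apart, and F2 lay between them. The log2 fold change was 0.28 ± 0.17 (SE, n = 2 libraries per group, q = 0.251) in F1, with a 95% interval of -0.06 to 0.62, and -0.09 ± 0.17 (q = 0.791) in F2 by edgeR's exact test. The F2 value turned to 0.13 without WT replicate 1.

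Idi1 encodes isopentenyl diphosphate isomerase, which turns isopentenyl diphosphate into the dimethylallyl diphosphate that starts the isoprene chain (chr13:8884852-8891641). It had 60 and 39 reads in WT, 94 and 174 in F1, and 109 and 101 in F2, the fewest of the 7 genes. In CPM these were 1.76 and 1.37 in WT, 3.10 and 5.63 in F1, and 4.08 and 3.75 in F2. All 4 F1 and F2 libraries lay above both WT libraries, and the F1 libraries were further apart than those of F2. The mean was 1.57 ± 0.28 CPM (SD, n = 2) in WT, 4.37 ± 1.79 in F1 and 3.91 ± 0.23 in F2. The change was 2.77-fold in F1, a log2 fold change of 1.47 ± 0.32 (SE, q = 9.6e-05 by edgeR's exact test), and 2.48-fold in F2, 1.31 ± 0.32 (q = 0.000763). These were the largest fold changes among the 7 genes in either comparison. Without F1 replicate 2 the F1 value was 0.98 (q = 0.0211), and without WT replicate 2 it was 1.32 (q = 0.0171). In F2 the call was lost on leaving out any of the 4 libraries compared, with q from 0.0119 to 0.0418. Of the annotated exon bases of Idi1, 85.8% have a copy elsewhere in mm9 of at least 50 bases and 96% identity, in 3 places, and reads that align to several places were not counted.

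Fdps encodes farnesyl diphosphate synthase, which joins isoprene units into the branch point of sterol and isoprenoid synthesis (chr3:88897514-88905881). It stood at 28.2 and 26.9 CPM in WT, 33.4 and 39.7 in F1, and 30.5 and 30.2 in F2. All F1 and F2 libraries were above both WT libraries, F2 by little. Its log2 fold change of 0.41 ± 0.14 (SE) in F1 missed the threshold (q = 0.0235, edgeR's exact test), and that of 0.14 ± 0.14 in F2 did as well (q = 0.541). The F1 value was 0.54 without F1 replicate 1 (q = 0.00471), 0.29 without F1 replicate 2 (q = 0.252), 0.44 without WT replicate 1 (q = 0.0931) and 0.39 without WT replicate 2 (q = 0.158). Copies cover 86% of its exon bases, in 5 places.

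Fdft1 encodes squalene synthase, the first step that leads only to sterols (chr14:63763990-63796630). It was at 52.9 and 48.6 CPM in WT, 68.4 and 71.8 in F1, and 53.3 and 59.9 in F2. Both F1 libraries were above the other 4, while the lower F2 library was close to the higher WT library. Fdft1 rose 1.38-fold in F1, a log2 fold change of 0.46 ± 0.12 (SE, q = 0.00194), and in F2 the value was 0.16 ± 0.12 (q = 0.407; edgeR's exact test). The call in F1 was lost without WT replicate 1 (q = 0.0123), WT replicate 2 (q = 0.0537) or F1 replicate 2 (q = 0.0302). Its exons overlap those of Ctsb, the gene of the protease cathepsin B, over 769 bases, and 52.2% of its exon bases have a copy in 1 other place.

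Sqle encodes squalene epoxidase, an oxygen-dependent and rate-limiting step of the sterol branch (chr15:59146632-59162747). Its level was 40.6 and 45.9 CPM in WT, 61.7 and 63.1 in F1, and 47.9 and 52.2 in F2. The order of the groups was the same as for Fdft1, with F1 above all other libraries and F2 just above WT. Sqle rose 1.44-fold in F1, a log2 fold change of 0.53 ± 0.12 (SE, q = 0.000374), against 0.21 ± 0.12 in F2 (q = 0.235; edgeR's exact test). The F1 call was lost without WT replicate 1 (log2 fold change 0.44, q = 0.0379) and held without each of the other libraries. Only 1.08% of its exon bases have a copy elsewhere.

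Lss encodes lanosterol synthase, the cyclase that closes squalene epoxide into lanosterol (chr10:75994333-76019883). Its level was 27.7 and 31.1 CPM in WT, 30.7 and 30.2 in F1, and 29.8 and 26.2 in F2. The groups overlapped in both comparisons. The log2 fold change was 0.05 ± 0.14 (SE, q = 0.852) in F1, with a 95% interval of -0.23 to 0.33, and -0.07 ± 0.14 (q = 0.786) in F2, with an interval of -0.35 to 0.21, by edgeR's exact test. The sign turned with a single library left out in both comparisons.

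Cyp51 encodes lanosterol 14-alpha-demethylase, the first step after lanosterol (chr5:4081145-4104746). It stood at 39.6 and 42 CPM in WT, 55.5 and 56.3 in F1, and 54.4 and 48.5 in F2. Every F1 and F2 library was above both WT libraries, and F2 replicate 1 came near the F1 level. Cyp51 rose 1.37-fold in F1, a log2 fold change of 0.46 ± 0.12 (SE, q = 0.00276), and its value of 0.34 ± 0.12 in F2 missed the threshold (q = 0.0371; edgeR's exact test). The F1 call was lost without any 1 of the 4 WT and F1 libraries, with q from 0.0104 to 0.0655.

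**Figure D1:**
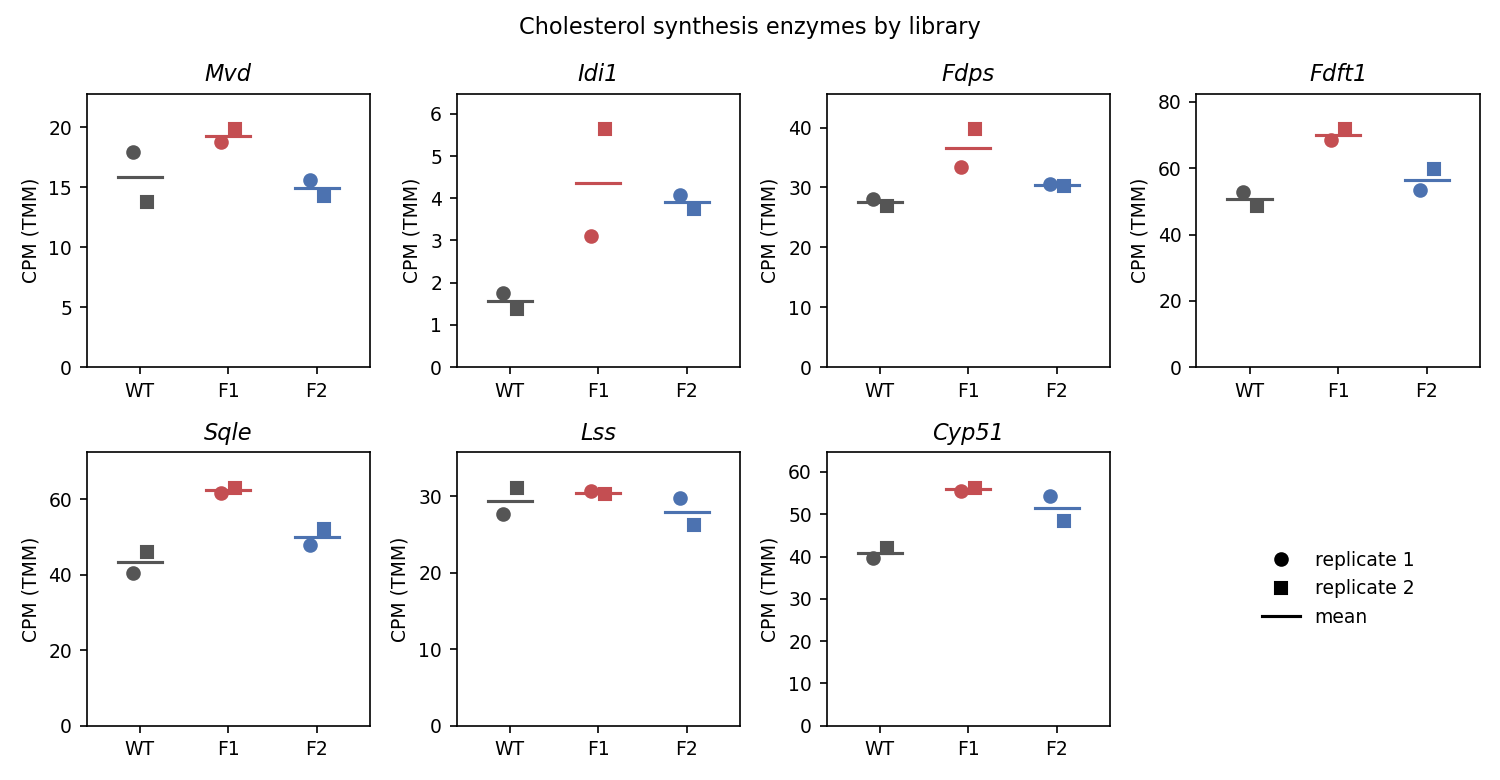
Level of the 7 tested enzymes in each library, in CPM, reads scaled to the TMM-adjusted library size (vertical axes, from 0), for WT, F1 and F2. Circles are replicate 1, squares replicate 2 and lines the mean of 2 libraries. Idi1 lies between 1.37 and 1.76 in WT and between 3.10 and 5.63 in F1 and F2, while Lss overlaps between all groups.

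In all, 6 of the 7 genes had both F1 libraries above both WT libraries, where 29.8% of all genes tested did, and 5 of the 7 had both F2 libraries above both WT libraries, where 31% of all genes did. F2 was also compared with F1. All 7 enzymes had a lower fitted level in F2 than in F1, with log2 fold changes from -0.12 in Cyp51 to -0.37 in Mvd, while 49.8% of all genes tested had a higher one. The value of Idi1 turned from -0.16 to 0.34 without F1 replicate 2. No enzyme passed the threshold (0 of 7 by edgeR's exact and quasi-likelihood tests and by DESeq2, beside 0.74% of all genes by the exact test), and an unadjusted p under 0.05 was reached by 3 enzymes with the exact test, 4 with the quasi-likelihood test and 3 with DESeq2. By that exact test, these 3 were Mvd (p = 0.035), Fdft1 (p = 0.012) and Sqle (p = 0.0105), with adjusted values of 0.499, 0.306 and 0.281. A difference between F1 and F2 in these enzymes was therefore not established.

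Per kilobase of annotated exon, Fdps had the highest level, from 21.8 to 32.2 RPKM over the 6 libraries, and Fdft1 was next at 17 to 25.1. Cyp51 (9.23 to 13.1), Mvd (7.80 to 11.3) and Sqle (7.31 to 11.4) overlapped in their ranges. Lss followed at 2.43 to 2.88 and Idi1 was lowest at 0.479 to 1.97. The exon length counts every annotated exon, 10787 bases for Lss and 1233 for Fdps, so a gene with many unused exons has a lower value on this scale. Reads that align to several places or lie in exons of several genes were not counted. Copies cover 85.8% of the exon bases of Idi1, 86% of Fdps and 52.2% of Fdft1, and Fdft1 shares 769 bases with Ctsb. The values of these genes may thus be too low, and the effect on this order was not tested.

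Over the 6 libraries, Pearson's r of log2 CPM between 2 enzymes ranged from -0.09 (Idi1 with Lss) to 0.92 (Fdps with Fdft1) in the 21 pairs. The libraries differ in group and depth, so these values include the differences between the groups. The 6 pairs with Lss ranged from -0.09 to 0.32, and the 10 pairs among Idi1, Fdps, Fdft1, Sqle and Cyp51, grouped after their values were seen, ranged from 0.72 to 0.92. The mean of the 7 enzymes, each centred on its own mean log2 CPM, was -0.23 and -0.30 in WT, 0.16 and 0.34 in F1, and 0.04 and -0.00 in F2. Among 13672 other genes with a mean of at least 50 reads, those most alike to this mean over the 6 libraries were Vrk3 (r = 0.998), Rbm43 (0.994), Gm15772 (0.993), Adipor1 (0.993) and Ric3 (0.991). In F1, edgeR's exact test called Rbm43 (q = 0.000179) and Gm15772 (q = 3.0e-33). It did not call Vrk3 (q = 0.16), Adipor1 (q = 0.0341) or Ric3 (q = 0.101). These 5 were picked for their high r over few libraries, and shared control with the enzymes was not tested.

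Beside the 8 enzymes, 14 further genes of sterol synthesis were listed and tested. In F1, 4 of the 14 rose and 2 fell, and in F2 2 rose and 1 fell, with a median log2 fold change of 0.21 in F1 and 0.13 in F2. Sc4mol (now Msmo1), the sterol C4-methyl oxidase, rose in F1 by 0.47 (q = 0.000748) and had 0.22 in F2 (q = 0.164). Sc5d, the sterol C5-desaturase, rose in F1 by 0.56 (q = 0.00439) and had 0.28 in F2 (q = 0.222). Dhcr7, the reductase of 7-dehydrocholesterol, had 0.31 in F1 (q = 0.116) and 0.14 in F2 (q = 0.558).

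The genes that fell stood at steps with a second enzyme. Tm7sf2, a sterol C14-reductase whose reaction Lbr also carries out, was at 25.7 and 22 CPM in WT, 14.3 and 14.8 in F1, and 14.2 and 15.4 in F2. It fell by 0.71 on the log2 scale in F1 (q = 0.000166) and by 0.69 in F2 (q = 0.000335), directly after Cyp51 in the pathway. Idi2, the paralog of Idi1, was at 1.47 and 1.58 CPM in WT, 0.429 and 0.453 in F1, and 1.23 and 0.557 in F2. It fell by 1.78 in F1 (q = 0.00045), while its value in F2 was -0.77 (q = 0.168), on a mean of few reads. The F2 value was -1.44 without F2 replicate 1 and -0.30 without F2 replicate 2, and DESeq2 did not call the fall in F1 (q = 0.0238). In F1, Idi1 and Idi2 thus moved in opposite directions. Each call named for Sc4mol, Sc5d, Tm7sf2 and Idi2 was lost without at least 1 library, for example Sc5d in F1 without F1 replicate 2 (0.37, q = 0.138) and Tm7sf2 in F1 without WT replicate 1 (q = 0.033).

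**Figure D2:**
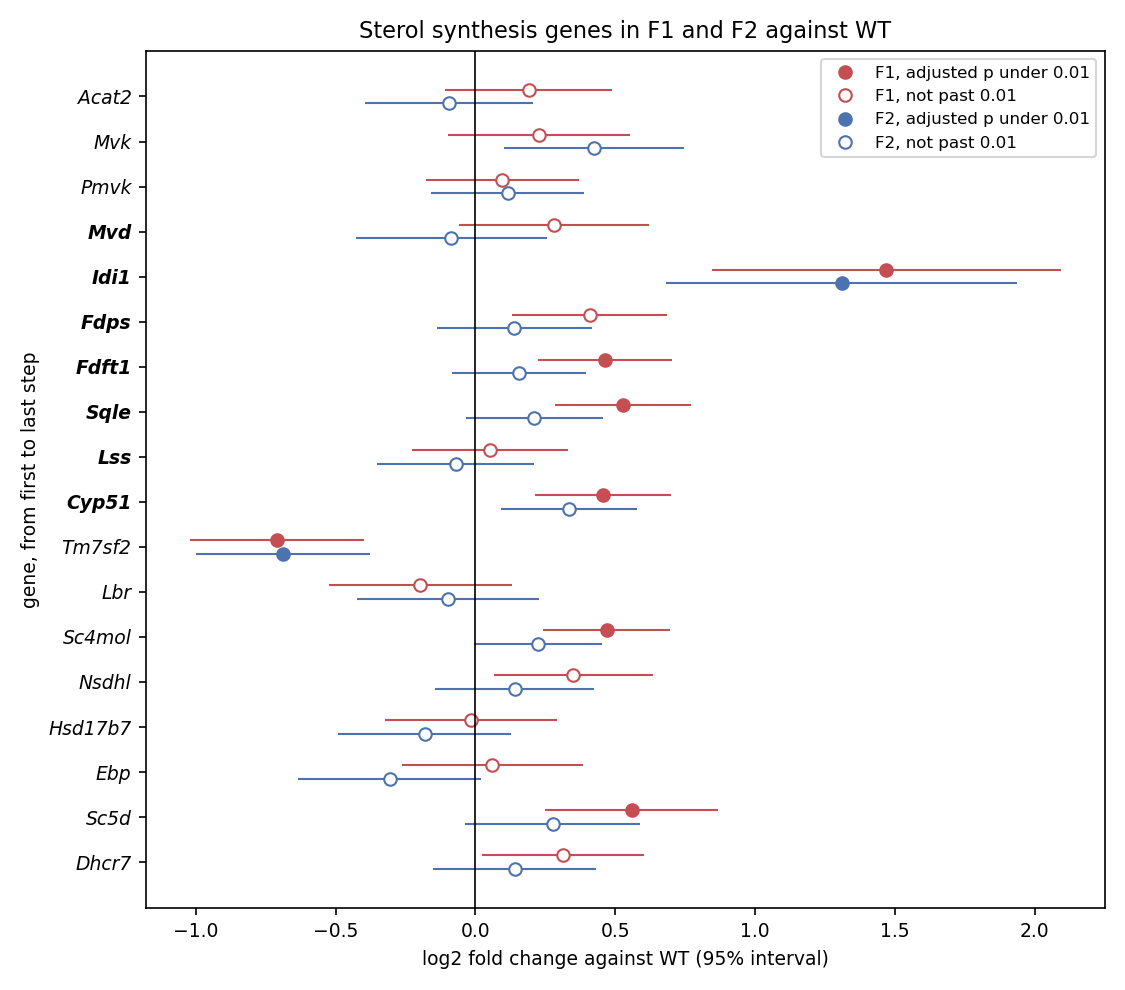
Log2 fold change against WT (horizontal axis) of sterol synthesis genes from the first step (top) to the last, in F1 (red) and F2 (blue), with 95% intervals from the fitted dispersion. The 7 tested enzymes are in bold, filled points have q under 0.01, and not every gene of the list is drawn. Among the genes drawn, Idi1 (1.47 and 1.31) lies farthest to the right and Tm7sf2 (-0.71 and -0.69) to the left.

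Of the 7 genes of sterol sensing, 0 passed edgeR's exact test in F1, with 2 at an unadjusted p under 0.05, and 1 rose in F2, with medians of 0.01 and 0.04. Insig1, which holds SCAP in the endoplasmic reticulum and is itself a target of SREBP-2, was at 36.2 and 41.4 CPM in WT, 48.4 and 52.5 in F1, and 57.7 and 54.7 in F2. It rose by 0.53 ± 0.13 (SE, q = 0.000494) in F2, and its value in F1 was 0.38 ± 0.13 (q = 0.02). Srebf2, the gene of SREBP-2, had 0.43 in F1 (q = 0.0165) and 0.28 in F2 (q = 0.149). In F1 this was 0.28 without F1 replicate 2 (q = 0.262) and 0.59 without F1 replicate 1 (q = 0.00196), and in F2 it ranged from 0.17 to 0.42 with a library left out. Scap had -0.10 in F1 (q = 0.612) and -0.17 in F2 (q = 0.313). Of the 5 tested genes of cholesterol uptake and further SREBP-2 targets, 2 rose in F1 and 0 in F2, where 3 had an unadjusted p under 0.05 by the exact test. Stard4, a sterol carrier, rose by 0.60 ± 0.18 (SE, q = 0.00642) in F1, and its value in F2 was 0.38 (q = 0.119). Of 17 alternatives at the same threshold, 5 lost the call of Stard4 in F1 and 3 that of Insig1 in F2. Stard4 was lost by the quasi-likelihood test (q = 0.0227) and without WT replicate 1, F1 replicate 1 or F1 replicate 2. Its F1 value ranged from 0.46 to 0.76 over the alternatives. Insig1 was lost without WT replicate 1 or F2 replicate 1, with an F2 value from 0.44 to 0.64 over the alternatives.

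Markers of other cell types were measured in the same libraries. Of 14 oligodendrocyte markers, such as Mbp and Mag, all had a positive log2 fold change in both comparisons, and 4 passed in F1 and 2 in F2, with medians of 0.80 and 0.59. Their summed level was 1169 and 2111 CPM in WT, 3169 and 2385 in F1, and 1646 and 3086 in F2, with none of the markers at 0. The 7 enzymes summed to 208.6 and 209.7 CPM in WT, 271.5 and 286.5 in F1, and 235.6 and 235.0 in F2. The enzymes' sums lay close together within WT and within F2, but single enzymes moved in opposite directions there. From replicate 1 to 2 in WT, for example, Mvd went from 17.9 to 13.7 CPM and Sqle from 40.6 to 45.9. In F2, Fdft1 went from 53.3 to 59.9 and Cyp51 from 54.4 to 48.5. Of 10 astrocyte markers, such as Gfap and Aqp4, 1 rose in F1 and 6 in F2, with medians of 0.35 and 0.50, and their sum was 2527 and 2767 CPM in WT, 3093 and 3725 in F1, and 4176 and 3508 in F2. The astrocyte sum was above WT in all F1 and F2 libraries, and F1 and F2 overlapped. By the same test, microglial markers rose in 0 of 7 in F1 (4 at an unadjusted p under 0.05) and 5 of 7 in F2, endothelial markers in 0 (2 at an unadjusted p under 0.05) and 1 of 6, interneuron markers in 1 and 2 of 5, and those of CA fields and hilus in 1 and 0 of 4. The part of other cell types in the enzymes' levels was not tested.

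**Figure D3:**
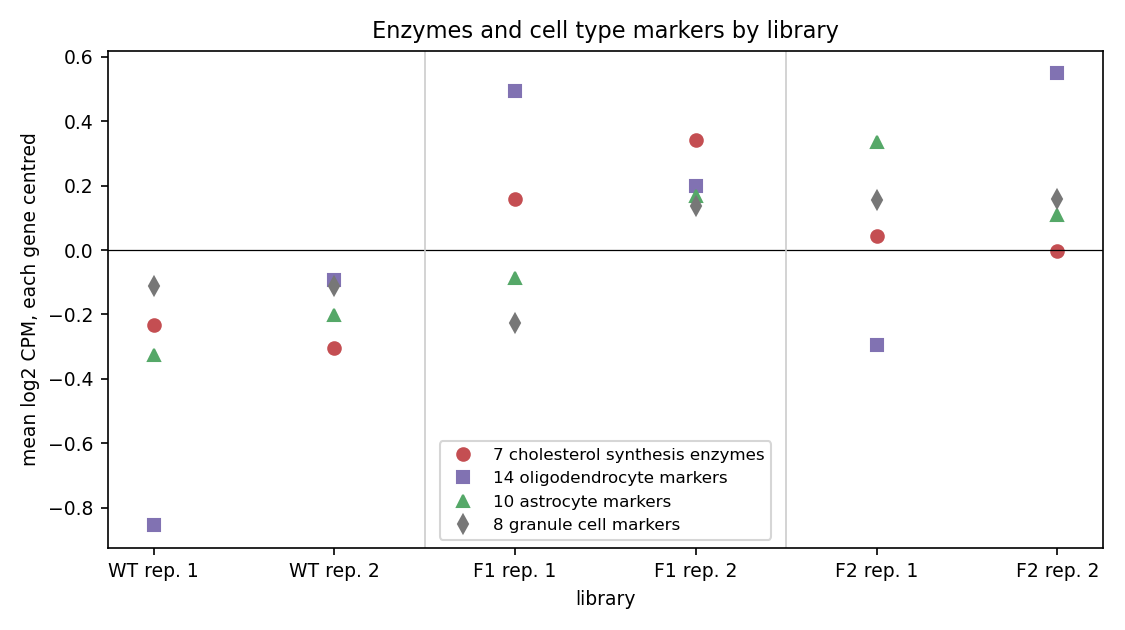
Mean log2 CPM of 7 enzymes and of 3 lists of cell type markers in each library (horizontal axis), each gene centred on its mean over the 6 libraries (vertical axis). The enzymes lie at -0.23 and -0.30 in WT and at 0.16 and 0.34 in F1, and the oligodendrocyte markers at -0.85 and -0.09 in WT and at -0.29 and 0.55 in F2.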

How the data were processed

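RNA-Seq counts of 6 libraries, 2 each of WT, F1 and F2, were analysed; the bisulfite samples were not used here. The authors microdissected the ventral granule cell layer from sections of 200 µm, sequenced single-end reads of 50 bp from poly(A) RNA, aligned them to mm9 with TopHat and deposited raw counts per gene symbol from HTSeq (intersection-strict). Reads that align to several places, reach beyond exons or lie in exons of more than 1 gene are not in these counts, and use of strand is not given in the sources used here. Rows that name no gene (35.3 to 46.6% of the reads listed) were left out. Groups follow the labels.

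Counts were filtered with filterByExpr, TMM-normalized and compared by the exact test of edgeR 4.0.16 (R 4.3.3), with tagwise dispersion over all 3 groups and Benjamini-Hochberg adjustment over 17421 genes. The threshold was q under 0.01; the methods also name 0.05. SE and 95% intervals follow from mean counts and dispersion. The common dispersion gave a coefficient of variation of 10.6%, so the number of libraries, more than depth, limits the precision. The procedure was checked on simulated counts. Alternatives were quasi-likelihood and likelihood-ratio tests with and without the replicate number, DESeq2 1.42.0, other normalizations, filters, dispersion and threshold, and each library left out. The members and lists were chosen with earlier results of these data known. All 8 members are named, with context genes past the threshold in F1 or F2, Dhcr7, Srebf2, Scap and Insig1, and the 5 genes most alike to the members' mean. Results of some listed genes are left out of the text, although each list's totals cover them. Gene positions, exon lengths and overlaps come from GENCODE M1 (mm9), copies from blastn 2.17.0 against NCBIM37, and promoters from RefSeq (GRCm38.p6); no coordinates were converted. Plots used Python 3.11.15, pandas 2.3.3 and matplotlib 3.10.9.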

Additional observations from a re-analysis of the deposited data

How the results depend on the processing

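With 2 libraries per group, counts of calls depended on single libraries and on the test, while no enzyme past the threshold changed direction. In the main test 4 enzymes were called in F1, 1 in F2 and none in F2 against F1, so only these calls could be lost. The log2 fold changes of the 7 enzymes were recomputed under the alternatives in the 3 comparisons. Of these values, 352 stayed on their side of the threshold, 23 lost the call and 3 gained it. The sign changed in 5 of them, none past the threshold and each with a library left out: Idi1 in F2 against F1, Mvd in F2, and Lss in F1 once and in F2 with either of 2 libraries left out. The causes were not tested. Enzymes called in F1 numbered 4, 2 by the quasi-likelihood test, and 1 to 4 with a library left out. In F2 they numbered 1, 0 by the quasi-likelihood test, 2 at a threshold of 0.05, and 0 to 1 with a library left out. The F2 median of 0.16 ranged from 0.12 to 0.24 with a library left out. Over all genes, calls in F1 numbered 2144, 1029 by the quasi-likelihood test, 3623 at 0.05 and 988 to 2043 with a library left out. In F2 they numbered 2084, 997, 3606 and 703 to 2585, and in F2 against F1 129, 2, 230 and 52 to 223.

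The replicate numbers are not known to pair the libraries. Deviations from the group means of libraries with the same number correlated at -0.03 (WT with F1), -0.08 (WT with F2) and -0.18 (F1 with F2). These correlations cannot settle whether libraries with the same number were handled together. With the replicate number as a block, the quasi-likelihood test called 0 enzymes in F1 and 0 in F2, and 848, 758 and 9 genes in F1, F2 and F2 against F1. A block with crossed F2 numbers, added after seeing the data, gave 233 genes in F2 against F1 by the likelihood-ratio test.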

Other observations

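Farnesyl diphosphate, the product of Fdps, also feeds the synthesis of geranylgeranyl groups, dolichol and the ubiquinone tail. Over all genes tested, 8.54% fell in F1 and 12% passed in F2 by edgeR's exact test at q under 0.01. Of 9 genes of the farnesyl diphosphate branches, 1 fell in F1, near that share. In F2, 0 of the 9 passed, with 4 at an unadjusted p under 0.05. Their median log2 fold change was 0.11 in F1 and 0.04 in F2. The gene that fell was Pdss1, a subunit of the synthase of the ubiquinone tail, at 14.2 and 12.6 CPM in WT, 8.81 and 7.25 in F1, and 9.12 and 8.69 in F2. Its log2 fold change was -0.74 ± 0.19 (SE, q = 0.00122) in F1 and -0.59 ± 0.19 (q = 0.0132) in F2. The call in F1 was lost by the quasi-likelihood test (q = 0.0106) and without WT replicate 1 or F1 replicate 2.

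Of 8 genes of cholesterol efflux, turnover and the sterol receptor LXR, 0 passed the same test in F1, with 3 at an unadjusted p under 0.05, and 2 rose in F2, with medians of 0.13 and 0.32. Mylip, an LXR-induced ubiquitin ligase, rose by 0.64 ± 0.20 (SE, q = 0.00923) in F2, and Apoe, the main apolipoprotein of brain and an astrocyte product, by 0.40 ± 0.12 (q = 0.00789). Of 17 alternatives at the same threshold, 9 lost the call of Mylip and 8 that of Apoe. Both were lost by the quasi-likelihood test (q = 0.0292 and 0.0357) and with library size alone (q = 0.0147 for each). Both were also lost without F2 replicate 1, WT replicate 1 or WT replicate 2, and Mylip with no filter (q = 0.0109). Over the alternatives the F2 value ranged from 0.39 to 0.87 in Mylip and from 0.28 to 0.52 in Apoe.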
